A study of Mus musculus with 4 samples.

Results

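Immediate early genes are switched on within minutes of a growth factor, stress or injury signal from factors already present in the cell, and heat shock genes are switched on when proteins misfold. The 10 genes described here are the transcription factor genes Fos, Fosb, Jun, Junb, Egr1 and Atf3, the response genes Ier2 and Ier3, the phosphatase gene Dusp1 and the chaperone gene Hspa1b. They were chosen by gene symbol, as 10 of the 23852 names in the 4 deposited tables, and their levels were taken from whole mouse kidneys at E18.5, late in gestation. A row of its own was present in all 4 tables for 9 of them. Hspa1b had one in 2 tables and shared a row with its neighbour Hspa1a in the other 2.

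The mutant kidneys were Hnf4a c/c ; Six2GFPcre, in which both alleles of the nuclear receptor gene Hnf4a were conditional. The control kidneys were Hnf4a c/+ ; Six2GFPcre, with 1 conditional allele, so Cre was present in both groups and the controls could lose 1 copy. Six2GFPcre acts in nephron progenitors and so reaches the epithelium they form, whereas kidney stroma, vessels and collecting ducts arise from other cells. Each group held 2 libraries, the strain was given as mixed, and the sources used here do not say whether a library came from 1 embryo or from several. The p-values below therefore measure the spread between these libraries, which may be technical.

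Immediate early proteins act as a relay. Fos and Jun family members pair to form the transcription factor AP-1, Egr1 and Atf3 bind DNA sites of their own, and the phosphatase Dusp1 switches off the kinases that started the response. Their messenger RNAs are short-lived, so that a level measured in tissue depends closely on its recent history, handling included. Hspa1b and its near twin Hspa1a encode the inducible cytosolic form of the chaperone Hsp70, whose transcription is driven by the heat shock factor Hsf1. In the kidney, Fos, Egr1, Atf3 and the Hsp70 genes are known for their rapid induction after loss of blood flow.

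All 4 tables gave FPKM, the fragments per kilobase of transcript, scaled to the mapped fragments of the library. Read totals are not part of them and the absolute depth stays unknown, though relative depth can be read from genes below 0.1 FPKM in a pair of libraries. Their most frequent log2 ratio was 0.21 for mutant replicate 1 over mutant replicate 2, and -0.20 and -0.18 for mutant replicate 2 over control replicates 1 and 2, so mutant replicate 2 was somewhat deeper. Between 13085 and 13183 joined genes reached 1 FPKM per library. The level of Hnf4a was 87.1 and 78.5 FPKM in mutant libraries against 89.3 and 84.6 FPKM in control libraries. This row covers the whole gene and does not check the genotype. Of 11 kidney marker genes, 11 were detected in every library. Their summed level was 648 and 577 FPKM in mutant libraries and 713 and 628 FPKM in control libraries. The proximal tubule marker Slc34a1 was at 45.3 and 39.7 FPKM in mutant libraries and at 119 and 93.8 FPKM in control libraries. In whole tissue, fewer cells of a type and less RNA per cell cannot be told apart. Among the listed adrenal markers, Cyp21a1 and Cyp11b1 were at 0 throughout, and the sum over the 6 genes found was 0.612 and 0.828 FPKM in mutant against 0.933 and 1.23 FPKM in control libraries. The 12 macrophage and leukocyte markers summed to 145 and 176 FPKM in mutant libraries and to 146 and 140 FPKM in control libraries. The 5 urothelium markers varied between libraries, with sums of 140 and 85.4 FPKM in mutant and 96.3 and 78.0 FPKM in control libraries. The part of any of these in the results below was not tested.

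None of the immediate early or heat shock genes passed the test, although several sat slightly lower in mutant kidneys. Of 8 members tested in the fit over 13287 genes (limma on log2(FPKM + 1), Benjamini-Hochberg adjusted p under 0.05), 0 were higher and 0 lower, where 0.0452% of all tested genes were called higher and 0.113% lower. Without adjustment, 1 of the 8, Jun, was lower at p under 0.05, where 4.57% of all tested genes were. In Ier2, Jun, Dusp1 and Junb both mutant libraries lay below both control libraries, so 4 of 8 members did so, against 17.1% of all tested genes. With each library scaled to the same sum over named genes, the groups of Ier2 overlapped and 3 of 8 members did so, against 12.1% of all. Scaled by the median ratio between libraries, 4 of 8 members had both mutant libraries below both control libraries, against 19.4% of all. No member had both mutant libraries above both control libraries, whereas 22.7% of all tested genes did. The log2 change was negative in 7 of 8 members, with a median of -0.14, and in 44.7% of all tested genes, whose median was 0.022. Scaling to the same sum, or by the median ratio between libraries, left 7 of 8 negative, beside 37.6% and 49.3% of all tested genes. By the median ratio Ier3, the member that was not negative, stood at 0.0071. With 2 libraries against 2, an exact two-sided permutation test of a single gene cannot go below p = 0.333.

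**Figure D1:**
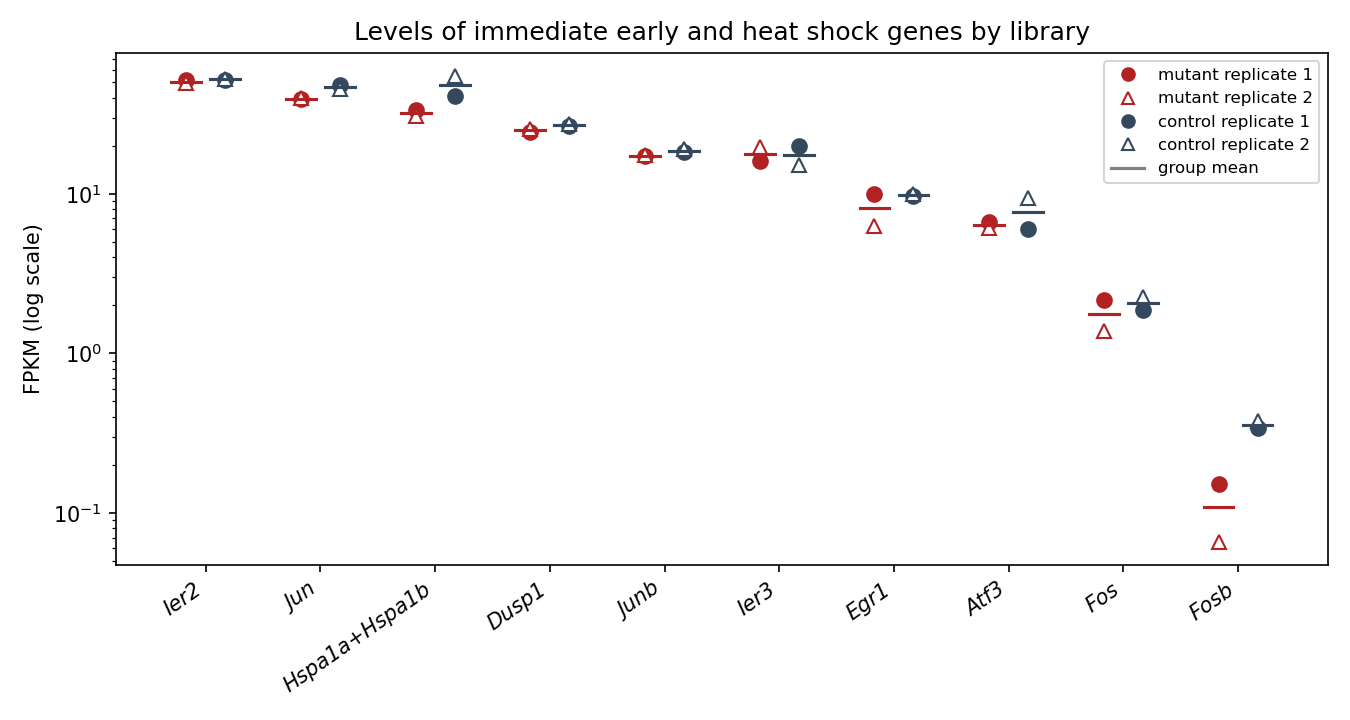
FPKM on a log axis for each gene, in order of the mean over 4 libraries, with mutant libraries left of control libraries and a bar at each group mean. The levels run from about 50 FPKM for Ier2 down to 0.0659 FPKM for Fosb in mutant replicate 2, and most groups lie close together beside that range.

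The members spanned a wide range of basal levels. Per transcript length, Ier2 stood highest, with a mean of 51.3 FPKM over the 4 libraries, above 84.6% of tested genes. It was followed by Jun (43.1 FPKM), Dusp1 (26.0), Junb (18.0), Ier3 (17.7), Egr1 (8.99), Atf3 (7.02) and Fos (1.92), the last above 6.34% of tested genes. Fosb was lower still and did not reach 1 FPKM in any library, so it was not among the genes tested. Junb and Ier3 did not separate beyond the spread between libraries, nor did Egr1 and Atf3. The ranges of the other neighbours in this order did not overlap. Each of these 9 loci had the same bounds in all 4 tables and overlapped no other named locus.

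Jun (mm9 chromosome 4, 94715727 to 94718913) encodes the c-Jun subunit of AP-1, and it was the tested member whose groups stood furthest apart beside their own spread. Its level was 39.0 and 39.9 FPKM in mutant libraries and 48.1 and 45.6 FPKM in control libraries, without overlap. The means were 39.4 ± 0.647 FPKM in mutant and 46.8 ± 1.78 FPKM in control libraries (SD, n = 2 each). The log2 change was -0.24 (SE 0.074, 95% interval -0.44 to -0.042), with an unadjusted limma p of 0.0274 and an adjusted p of 0.57. It did not pass, and its value lay between -0.28 and -0.20 with any 1 library left out. Of the 50-base windows of the Jun transcript, 5.83% also occurred in the GENCODE transcripts of Junos, named as its opposite-strand partner. No source here describes the counting as stranded, and reads from the windows they share cannot be told apart.

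Junb (mm9 chromosome 8, 87500808 to 87502647), a Jun relative that often restrains c-Jun, was nearly level. It had 17.2 and 17.5 FPKM in mutant libraries and 18.2 and 19.1 FPKM in control libraries. The groups did not overlap, but the log2 change was -0.10 (95% interval -0.35 to 0.16) with an adjusted p of 0.79. Jund, their steadily expressed relative, had 66.9 and 59.2 FPKM in mutant libraries and 80.6 and 67.6 FPKM in control libraries. Its groups did not overlap either, with a log2 change of -0.23 and an adjusted p of 0.76. They did overlap when scaled to the same sum, but not by the median ratio.

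Fos and Fosb were the scarcest members. Fos (mm9 chromosome 12, 86814851 to 86818219), the classical immediate early gene, had 2.17 and 1.37 FPKM in mutant libraries and 1.87 and 2.27 FPKM in control libraries. Mutant replicate 2 was the lowest library, mutant replicate 1 lay between the control libraries, and the groups overlapped. The log2 change was -0.16 (SE 0.22, 95% interval -0.75 to 0.43, adjusted p = 0.85), and without mutant replicate 2 it was 0.049.

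Fosb (mm9 chromosome 7, 19888045 to 19895394), a relative of Fos with little expression at rest, was below 0.4 FPKM in all 4 libraries. It had 0.153 and 0.0659 FPKM in mutant libraries and 0.342 and 0.374 FPKM in control libraries. Both mutant libraries were lower than both control libraries, with means of 0.109 ± 0.0613 and 0.358 ± 0.0228 FPKM (SD, n = 2 each), a ratio of 0.305. The intervals deposited with these values ran over 0.0361 to 0.288 and 0 to 0.156 in mutant libraries, and over 0.114 to 0.570 and 0.177 to 0.601 in control libraries, so both mutant intervals overlapped that of control replicate 1, and mutant replicate 1 overlapped control replicate 2 as well. In a fit with no filter on low values the log2 change was -0.29 (SE 0.081), with an unadjusted p of 0.0211 and an adjusted p of 0.58. In that fit 4.04% of genes were lower at an unadjusted p under 0.05, and 15.6% had both mutant libraries below both control libraries. The log2(FPKM + 1) scale understates changes at such levels, and with a pseudocount of 0.1 the change was -1.16.

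The promoters of Fos and Fosb are shown because the core letters of the cyclic AMP response element, TGACG on either strand, occurred in 5 of the 8 members with a promoter in the RefSeq table, namely Fos, Fosb, Junb, Atf3 and Dusp1. Over all 32851 promoters of that table, 20.8% held it. Each window runs over 300 bases around the start of the gene, on build GRCm38.p6, 5′ to 3′, with matches in capitals (Fos chr12:85473640-85473939, plus strand. Fosb chr7:19309996-19310295, minus strand).
Fos: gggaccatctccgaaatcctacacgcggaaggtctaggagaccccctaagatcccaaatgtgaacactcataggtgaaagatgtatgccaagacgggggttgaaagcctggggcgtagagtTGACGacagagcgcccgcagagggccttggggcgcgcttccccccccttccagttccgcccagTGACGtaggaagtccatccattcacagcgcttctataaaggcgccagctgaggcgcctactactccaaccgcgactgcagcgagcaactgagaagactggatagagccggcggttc
Fosb: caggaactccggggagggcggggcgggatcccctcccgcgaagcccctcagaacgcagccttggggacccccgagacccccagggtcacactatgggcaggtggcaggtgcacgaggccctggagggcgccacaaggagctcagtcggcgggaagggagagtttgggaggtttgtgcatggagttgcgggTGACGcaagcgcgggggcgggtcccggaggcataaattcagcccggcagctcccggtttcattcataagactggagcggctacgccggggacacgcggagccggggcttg
Fos held 2 matches and Fosb 1. The CArG box, bound by serum response factor, was found in 0 of the 8 windows and in 1.63% of all promoters. The letters CAAAGTCCA, a motif that Hnf4 proteins favour, were found in 0 of the 8 windows and in 0.475% of all promoters. These are matches of letters in a window, with no binding measured. Egr1 and Ier2 had no window, and sequence outside the 300 bases was not searched, so absence from a window is not absence from the gene.

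Egr1, a zinc finger factor induced by mitogens, differed through 1 library. Its level was 10.03 and 6.24 FPKM in mutant libraries and 9.65 and 10.02 FPKM in control libraries. Mutant replicate 2 was low, and mutant replicate 1 was the highest of the 4. The log2 change was -0.28 (SE 0.24, 95% interval -0.92 to 0.36, adjusted p = 0.78), and without mutant replicate 2 it was 0.026. The same library was lowest for Fos and Fosb, and for Ier2 as well. Among all tested genes it was the lowest library in 21.0%.

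Atf3 (mm9 chromosome 1, 192994176 to 193007212), a stress-induced repressor of the ATF family, had 6.62 and 6.12 FPKM in mutant libraries and 5.98 and 9.36 FPKM in control libraries. Control replicate 2 stood above the other 3 libraries, which lay close together. The log2 change was -0.21 (SE 0.23, 95% interval -0.83 to 0.42, adjusted p = 0.82), and without control replicate 2 it was 0.078.

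**Figure D2:**
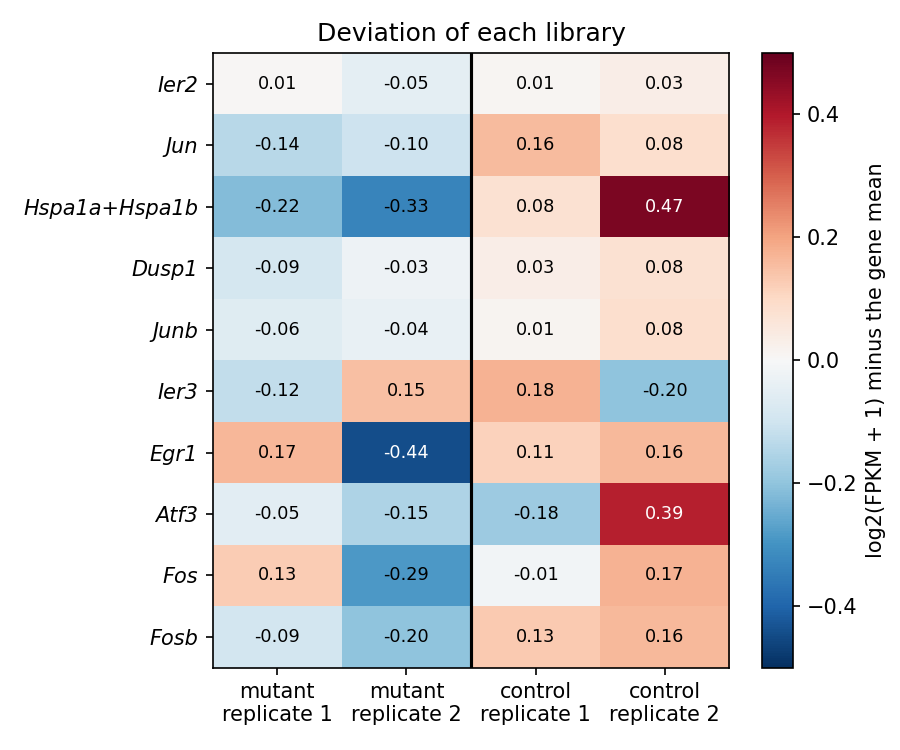
Each cell gives log2(FPKM + 1) of a gene in a library minus its mean over the 4 libraries, with mutant libraries left of control libraries. Egr1 and Fos are low in mutant replicate 2 (-0.44 and -0.29), and Atf3 and the Hspa1a and Hspa1b pair are high in control replicate 2 (0.39 and 0.47).

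Ier2 (mm9 chromosome 8, 87185230 to 87186751), a nuclear protein gene of the early response, was the steadiest member. It had 51.5 and 49.5 FPKM in mutant libraries and 51.7 and 52.4 FPKM in control libraries, a highest-to-lowest ratio of 1.06. The groups did not overlap, yet the log2 change was only -0.043 (95% interval -0.23 to 0.14, adjusted p = 0.88). In mutant replicate 2 its FPKM lay above the upper bound of its own deposited interval, 49.4. Such a value outside its interval was found in 6.50% and 7.50% of rows above 0 in mutant libraries and in 0% and 6.67% in control libraries. The 0% was control replicate 1, where each member's value sat at the middle of its interval, as Ier2 did within 47.0 to 56.3. In control replicate 2 Ier2 sat near the upper end of 42.0 to 53.6. Control replicate 1 may thus have been estimated differently, and the part of this in the comparisons was not tested.

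Ier3 (mm9 chromosome 17, 35958658 to 35959856), a survival gene induced by inflammatory signals, varied as much within groups as between them. It had 16.1 and 19.6 FPKM in mutant libraries and 20.0 and 15.1 FPKM in control libraries. The group ranges lay across each other, with a log2 change of 0.027 (95% interval -0.46 to 0.52, adjusted p = 0.98). Without mutant replicate 2 it was -0.11 and without control replicate 2 it was -0.16.

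Dusp1 (mm9 chromosome 17, 26642536 to 26645417), the phosphatase that inactivates MAP kinases, had 24.4 and 25.5 FPKM in mutant libraries and 26.6 and 27.5 FPKM in control libraries. The groups did not overlap, with a log2 change of -0.11 (SE 0.083, 95% interval -0.34 to 0.11, adjusted p = 0.77). Its promoter is shown because it was the single member window with the full palindrome TGACGTCA, found in 1.79% of all promoters (chr17:26508423-26508722, minus strand, capitals mark this palindrome and the core TGACG on either strand).
Dusp1: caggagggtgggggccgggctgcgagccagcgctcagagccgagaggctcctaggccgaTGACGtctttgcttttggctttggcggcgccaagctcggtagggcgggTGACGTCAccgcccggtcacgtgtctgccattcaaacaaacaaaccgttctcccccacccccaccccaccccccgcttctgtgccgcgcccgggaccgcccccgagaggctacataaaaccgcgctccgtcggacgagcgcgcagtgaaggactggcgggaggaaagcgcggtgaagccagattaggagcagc

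**Figure D3:**
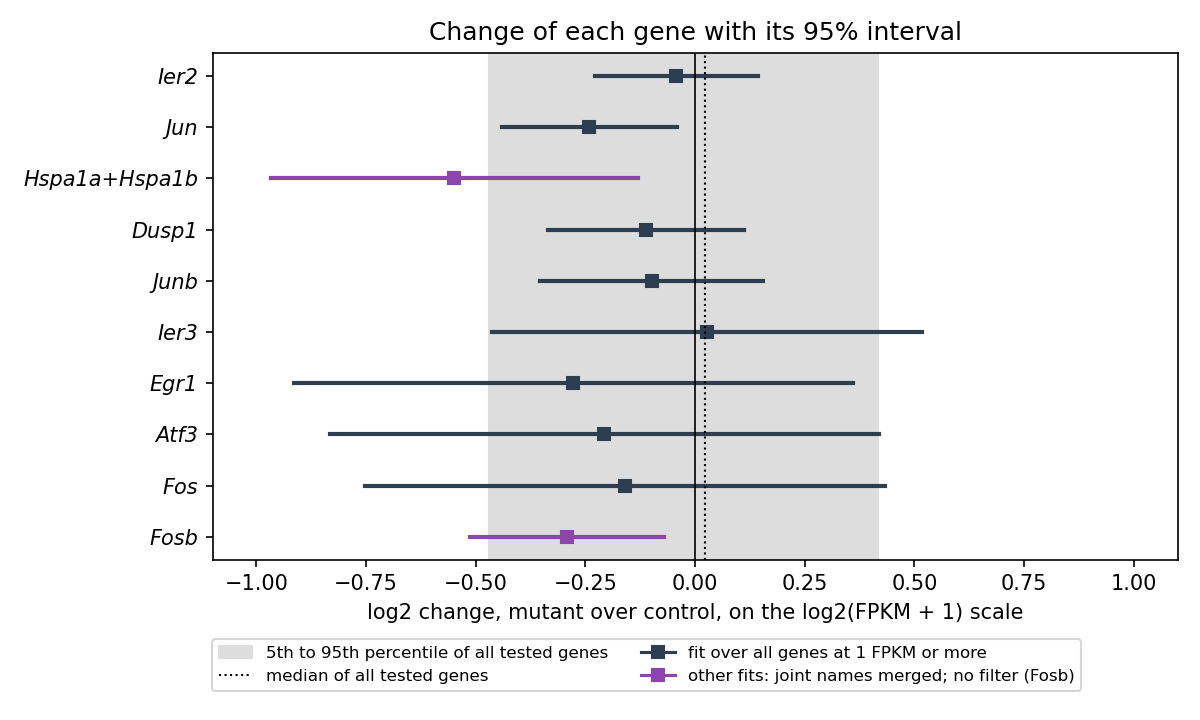
Log2 change of each gene, mutant over control, with its 95% interval. The grey band spans the 5th to 95th percentile of all tested genes (-0.47 to 0.42), and the intervals of Jun, Fosb and the Hspa1a and Hspa1b pair lie below 0 before adjustment.

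Hspa1b could be compared only together with Hspa1a. A row named Hspa1b alone gave 18.2 FPKM in mutant replicate 1 and 22.4 FPKM in control replicate 1. Its twin Hspa1a was at 15.2 FPKM in mutant replicate 1 and at 18.7 FPKM in control replicate 1. The ratio of Hspa1b to Hspa1a was 1.195 in either library. In mutant replicate 2 and control replicate 2 the genes stood in 1 joint row, spanning mm9 chromosome 17 from 35093374 to 35109101. These rows held 30.8 FPKM in mutant replicate 2 and 54.5 FPKM in control replicate 2.

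Summed over both genes, the level was 33.4 and 30.8 FPKM in mutant libraries and 41.2 and 54.5 FPKM in control libraries. Both mutant libraries were lower than both control libraries, with means of 32.1 ± 1.81 FPKM in mutant and 47.8 ± 9.42 FPKM in control libraries (SD, n = 2 each). With joint names merged in every library, a choice made after the data were seen, the log2 change was -0.55 (SE 0.16, 95% interval -0.97 to -0.13). The unadjusted limma p was 0.0212 and the adjusted p 0.51, so the pair did not pass. In that fit 17.1% of 13552 genes had both mutant libraries below both control libraries. The change was -0.35 without control replicate 2 and -0.75 without control replicate 1.

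The sequences of the pair show how little separates them. Of 300 promoter bases, 296 were the same (98.7%). The differences, Hspa1b first and counted from the 5′ end of the window, were T44C, C47T, G249T and T276C. Capitals mark GAANNTTC, an inverted pair of heat shock element units, found in 7.86% of all promoters, and the reverse arrangement TTCNNGAA was absent from both windows (chr17:34959189-34959488, minus strand for Hspa1b and chr17:34972107-34972406, minus strand for Hspa1a, GRCm38.p6).
Hspa1b: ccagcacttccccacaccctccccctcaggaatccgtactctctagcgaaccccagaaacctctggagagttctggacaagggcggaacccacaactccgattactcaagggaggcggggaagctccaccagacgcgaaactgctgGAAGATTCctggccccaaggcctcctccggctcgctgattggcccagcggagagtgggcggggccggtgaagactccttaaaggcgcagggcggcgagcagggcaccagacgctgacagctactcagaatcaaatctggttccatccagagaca
Hspa1a: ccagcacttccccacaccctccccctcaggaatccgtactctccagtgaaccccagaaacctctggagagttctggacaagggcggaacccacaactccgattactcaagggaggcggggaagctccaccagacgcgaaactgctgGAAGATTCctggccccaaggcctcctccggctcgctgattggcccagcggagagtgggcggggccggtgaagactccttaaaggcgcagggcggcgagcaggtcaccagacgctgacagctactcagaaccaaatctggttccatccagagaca
In the GENCODE transcripts, 62.3% of the 50-base windows of Hspa1b also occurred in another gene, Hspa1a among them, so the split of reads between them is uncertain. Fos, Fosb, Junb, Egr1, Ier2, Ier3, Atf3 and Dusp1 had no 50-base window in common with another gene. Hspa1l, the testis-type relative beside them, given for its position and outside the rule for named genes, had 2.57 and 3.61 FPKM in mutant libraries and 2.72 FPKM in control replicate 1, and was listed at 0 in control replicate 2, where the joint row was highest.

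**Figure D4:**
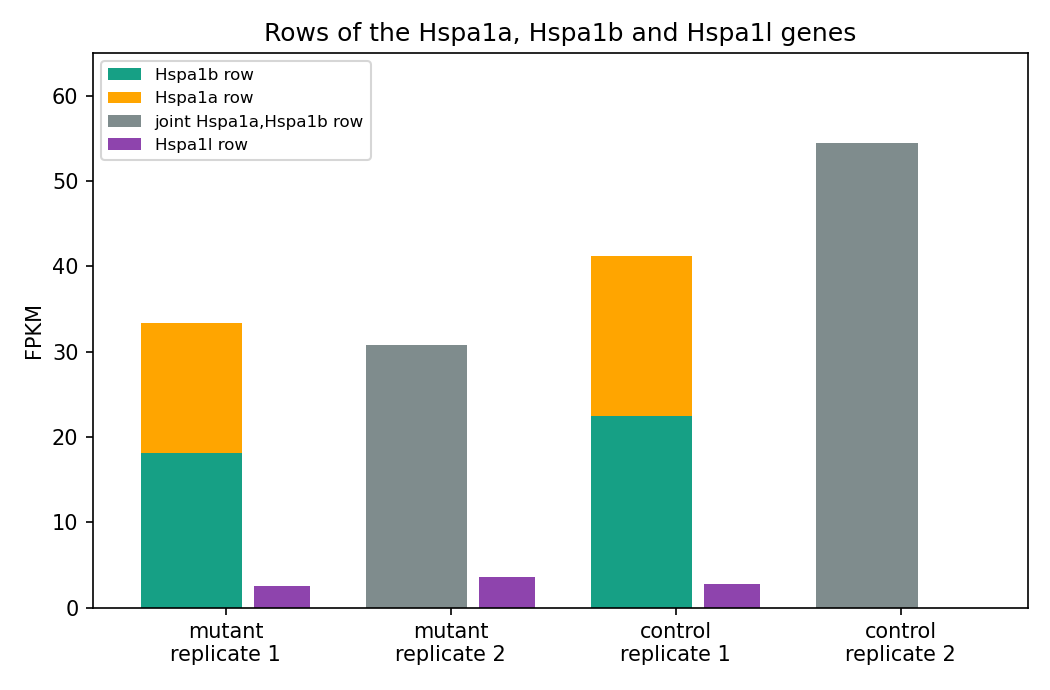
FPKM of the deposited rows for Hspa1b, Hspa1a, their joint row and Hspa1l, with mutant libraries left of control libraries. The stacked sums are 33.4 and 30.8 FPKM in mutant libraries and 41.2 and 54.5 FPKM in control libraries, and replicates 2 have the joint row only.

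Other immediate early genes gave no called member either. Of 49 listed genes, 44 were tested, and 0 were higher and 0 lower at an adjusted p under 0.05 (smallest adjusted p 0.41). At that threshold 0.0452% of all tested genes were higher and 0.113% lower. Before adjustment, at p under 0.05, 3 were lower and 0 were higher, where 4.57% and 2.67% of all tested genes were. Both mutant libraries lay below both control libraries in 16 of 44 (36.4%, against 17.1% of all tested genes), and above them in 2 (4.55%, against 22.7%). These counts depended on the scaling used. With each library scaled to the same sum over named genes they were 7 and 5, beside 12.1% and 31.0% of all genes. Scaled by the median ratio between libraries they were 17 and 2, beside 19.4% and 20.2% of all genes. The list median was -0.064, and -0.051 without the 2 tested genes listed at 0 in a library.

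The most abundant genes of that list were Rhob, Zfp36l1, Jund, described above with its relatives, and Mcl1. Rhob, a small GTPase of the actin cytoskeleton, had 90.0 and 85.1 FPKM in mutant libraries and 95.0 and 92.9 FPKM in control libraries. Zfp36l1, which marks messenger RNAs for decay, had 81.5 and 80.8 FPKM in mutant libraries and 82.9 and 82.2 FPKM in control libraries. Mcl1, a survival protein of the Bcl2 family, had 61.7 and 57.8 FPKM in mutant libraries and 58.2 and 59.4 FPKM in control libraries. For Rhob and Zfp36l1 both mutant libraries were the lower ones, and for Mcl1 the groups overlapped. Scaled to the same sum over named genes, the groups of Rhob and Zfp36l1 overlapped too, but scaled by the median ratio they did not.

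Larger differences were seen in a few regulators, none past the adjusted threshold. Maff, a small Maf transcription factor, had 13.9 and 16.9 FPKM in mutant libraries and 29.4 and 21.6 FPKM in control libraries (log2 change -0.68, unadjusted p = 0.0202). Cyr61, a secreted matrix protein and target of Yap, had 35.8 and 42.1 FPKM in mutant libraries and 51.5 and 55.6 FPKM in control libraries (log2 change -0.45, unadjusted p = 0.0113). Cebpd, an acute phase transcription factor, had 9.40 and 10.3 FPKM in mutant libraries and 15.7 and 12.4 FPKM in control libraries (log2 change -0.46, unadjusted p = 0.0388). The groups did not overlap in any of these 3, where both mutant libraries lay below both control libraries in 17.1% of all tested genes. This adds no support, since Maff was named for a large change without overlap. Cyr61 and Cebpd were picked after their values were seen. The Maff locus (mm9 chromosome 15) ended at 79189506 in both mutant libraries and at 79189618 and 79189616 in control libraries, and the Cebpd locus overlapped that of Spidr in all 4. The part of these in the values was not tested. Cebpb, a relative of Cebpd, was at 17.9 FPKM in mutant replicate 1, listed at 0 in mutant replicate 2, and at 26.6 and 26.9 FPKM in control libraries. Ddit3, a stress factor also picked after its values were seen, was listed at 0 in mutant replicate 1 and stood at 26.8 FPKM in mutant replicate 2, against 22.5 and 31.7 FPKM in control libraries. Such zeros can be failed estimates, so no fold is given for either gene. The Ddit3 locus overlapped that of Mars in all 4 libraries, and reads they share cannot be assigned with certainty.

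The remaining listed relatives of Fos, Egr1 and the Nr4a nuclear receptors are given as families, outside the rule for named genes and with their values known, and they did not share a direction. Fosl2, a Fos relative, had 24.0 and 23.4 FPKM in mutant libraries and 25.3 and 21.6 FPKM in control libraries, whereas Fosl1 and Egr4 were listed at 0 in all 4 libraries. Egr2, an Egr1 relative, was at 0.148 and 0.0853 FPKM in mutant libraries and at 0.295 and 0.436 FPKM in control libraries. Egr3, of the same family, was at 0.228 and 0.353 FPKM in mutant libraries and at 0.302 and 0.223 FPKM in control libraries, with overlap. Nr4a3, an orphan nuclear receptor of the early response, had 0.163 and 0.140 FPKM in mutant libraries and 0.243 and 0.398 FPKM in control libraries. For Egr2 and Nr4a3 both mutant libraries were the lower ones, and neither these nor Egr3 reached the level that was tested. Nr4a1 had 10.3 and 11.1 FPKM in mutant libraries and 12.0 and 14.3 FPKM in control libraries, a log2 change of -0.27. Nr4a2 had 11.1 and 10.8 FPKM in mutant libraries and 8.05 and 10.3 FPKM in control libraries, a log2 change of 0.24. The groups of Nr4a1 and Nr4a2 did not overlap, with or without scaling, and neither gene passed (adjusted p 0.76 for each).

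**Figure D5:**
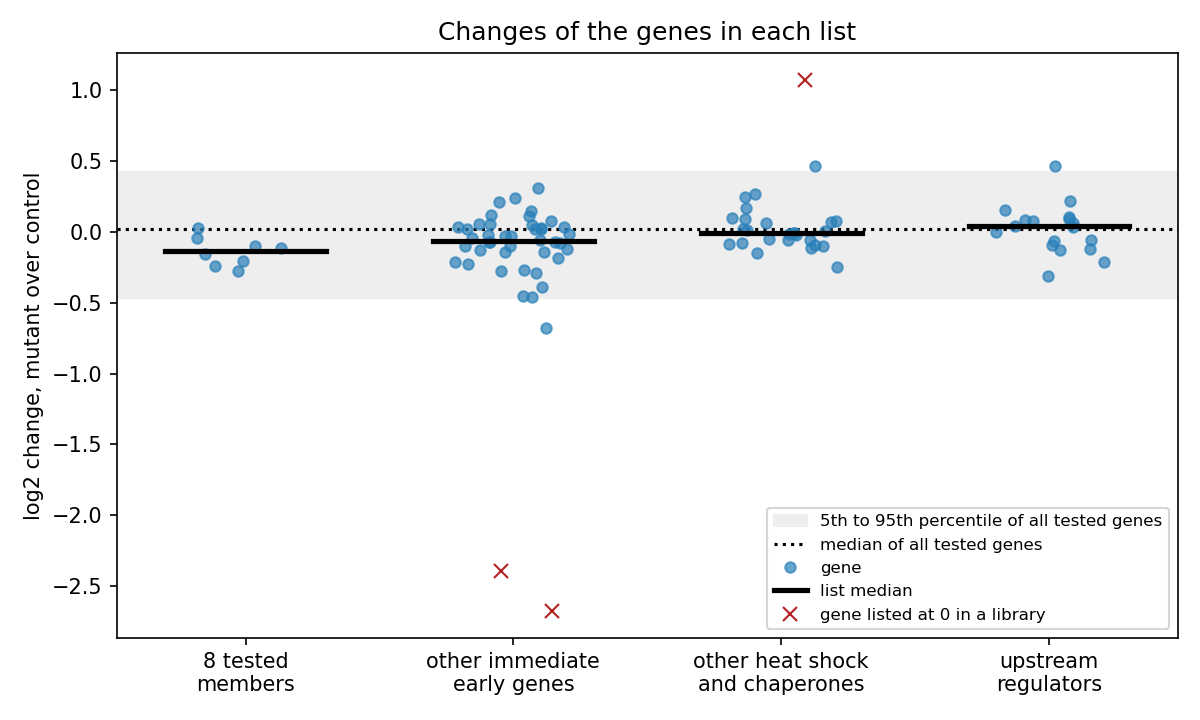
Log2 change, mutant over control, of every tested gene in 4 lists, with list medians as bars and genes listed at 0 in a library as crosses. The medians are -0.14, -0.064, -0.0057 and 0.039, beside 0.022 over all tested genes.

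Heat shock and chaperone genes outside the members gave no call. Of 29 listed, 27 were tested, and 0 passed the adjusted threshold in either direction. Among all tested genes, 0.0452% were called higher and 0.113% lower. With no adjustment, 1 was higher and 0 lower at p under 0.05, where 2.67% and 4.57% of all tested genes were. Both mutant libraries were below both control libraries in 5 and above them in 5, against 17.1% and 22.7% of all tested genes. With each library scaled to the same sum over named genes, these counts were 1 and 8, beside 12.1% and 31.0% of all. By the median ratio they were 5 and 5, beside 19.4% and 20.2% of all. The list median was -0.0057. Hsp90ab1, the constitutive cytosolic Hsp90, had 227 and 206 FPKM in mutant libraries and 227 and 224 FPKM in control libraries. Hspa8, the constitutive Hsp70, had 213 and 199 FPKM in mutant libraries and 216 and 210 FPKM in control libraries, so it was several times more abundant than the inducible pair.

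Serpinh1, the collagen chaperone, had 180 and 168 FPKM in mutant libraries and 185 and 183 FPKM in control libraries. Hspa5, the Hsp70 of the endoplasmic reticulum, had 150 and 142 FPKM in mutant libraries and 150 and 153 FPKM in control libraries. Both mutant libraries were the lower ones for either gene, with log2 changes of -0.083 and -0.059. Scaled to the same sum over named genes the groups of each overlapped, but scaled by the median ratio they did not. Hspa4l, an Hsp110-type chaperone, was the other way round, at 9.23 and 9.67 FPKM in mutant libraries and 7.69 and 7.69 FPKM in control libraries (log2 change 0.27, unadjusted p = 0.0897).

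Of 18 listed factors and kinases that switch these genes on, 0 were called (0.0452% of all tested genes were called higher and 0.113% lower). Their log2 changes ran over -0.31 to 0.46 with a median of 0.039. Both mutant libraries were below both control libraries in 4 and above them in 6, against 17.1% and 22.7% of all tested genes. With each library scaled to the same sum over named genes, these counts were 2 and 9, beside 12.1% and 31.0% of all. By the median ratio they were 4 and 6, beside 19.4% and 20.2% of all. One of them, Hsf2, was higher at an unadjusted limma p under 0.05 (0.0344), as were 2.67% of all tested genes. It had 15.8 and 17.1 FPKM in mutant libraries and 10.3 and 13.2 FPKM in control libraries. Hsf2 is a second heat shock factor, and its adjusted p was 0.62. In mutant replicate 1 alone its locus overlapped that of 4930467K11Rik. The main heat shock factor gene Hsf1 had 35.8 and 32.9 FPKM in mutant libraries and 37.2 and 36.2 FPKM in control libraries. Srf, which drives Fos and Egr1 through CArG boxes, had 37.2 and 35.9 FPKM in mutant libraries and 38.5 and 37.5 FPKM in control libraries. The stress kinase gene Mapk8 was at 11.2 and 11.4 FPKM in mutant libraries and at 9.02 and 10.2 FPKM in control libraries. Srf, Hsf1 and Hsf2 were also counted in the other lists, and Hsf1 and Srf are given for their roles, outside the rule for named genes.

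Other kinase genes of the same list had no common direction. Mapk3, which encodes the kinase ERK1, had 69.0 and 66.4 FPKM in mutant libraries and 69.1 and 72.7 FPKM in control libraries, without overlap. The gene of its activating kinase, Map2k1, had 58.9 and 61.5 FPKM in mutant libraries and 53.2 and 62.7 FPKM in control libraries. Mapk14, the p38 stress kinase gene, picked after its values were seen, had 39.7 and 41.2 FPKM in mutant libraries and 43.7 and 44.9 FPKM in control libraries, without overlap (log2 change -0.13, adjusted p = 0.76). Map2k2 was high in replicate 1 of either group, at 86.5 and 55.7 FPKM in mutant libraries and 81.7 and 59.3 FPKM in control libraries.

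The average profile of the 8 tested members was nearly flat. As log2(FPKM + 1) centred on each gene's mean, it was -0.020 and -0.12 in mutant libraries and 0.039 and 0.10 in control libraries. The 5 tested genes with the smallest Euclidean distance to it over the 4 libraries were the joint row of Mir3076 and Tkt (0.00402), Ndnl2 (0.0167), Sirt2 (0.0223), Gnpda1 (0.0231) and Angptl2 (0.0253). As many as 444 genes lay within 0.1 of it, so the profile picks out no small set. Control replicate 2 was the highest library for 5 of 8 members and for 21.9% of all tested genes. Control replicate 1, where member values sat at the middle of their intervals, was the lowest library for 1 of 8 members, but for 38.9% of all tested genes. The part of this in the shares over all genes given above was not tested.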

How the data were processed

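Poly(A)-selected RNA of whole kidneys was turned into libraries with a kit meant for DNA, per the labels' protocols. The FPKM values, with a lower and an upper interval bound, were computed by the authors and deposited as 1 table per library; no source used here gives the interval's level. The submitters' processing notes name TopHat2 2.0.11, Bowtie 1.0.0, SAMtools 0.1.19, Cufflinks 2.1.1 and build mm9. Joint gene names that differ between tables show that loci were merged per library, which decides whether Hspa1b has a row.

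FPKM was summed over rows with the same symbol. Of 22761 names in all 4 tables, 99 with a row not marked OK were left out. Genes at 1 FPKM or more in at least 2 libraries were fitted with limma 3.58.1 in R 4.3.3 on log2(FPKM + 1) with group as the single term and a mean-variance trend, and adjusted by Benjamini-Hochberg over all of them at 0.05. The script was tested on simulated data. It recovered 25 of 100 genes with a simulated log2 change of 1, and 87 of 100 with a change of 2. In each case 5 unchanged genes were called. Joining, motif searches and comparisons of GENCODE M21 transcripts in windows of 50 bases were run in Python 3.11.15. Promoters came from RefSeq (GRCm38.p6), which held 8 of the 10 members; Egr1 and Ier2 were not matched. Locus starts were shifted by 1 base to count from 1.

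The members and lists were chosen with earlier results of these data known. The genes named from the other lists were, by rule, those past the threshold, the 4 with the highest mean FPKM and the 2 with the largest change without overlap; others are marked where they appear, and 1 gene the rule names is not reported here. Beside the main fit, 14 alternatives were planned and 1 was added after seeing the data.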

Additional observations from a re-analysis of the deposited data

How the results depend on the processing

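No member passed under any of the 15 alternatives. The count over all tested genes, 21, was 10 with no filter on low values, 33 with a filter of 5 FPKM, 11 without the variance trend and 6 with the replicate block, and 0 to 14 with 1 library left out (0 without control replicate 1 and 0 without control replicate 2). For other immediate early genes it was 0 to 1 with 1 library left out; the 1, without mutant replicate 1, was Cebpb, listed at 0 in the mutant library that was left (adjusted p = 0.0313). Heat shock genes and upstream regulators stayed at 0.

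With 1 library left out, and always short of the threshold, the log2 change turned sign for Egr1 (-0.58 to 0.026, the highest without mutant replicate 2), Fos (-0.37 to 0.049, likewise), Atf3 (-0.49 to 0.078, the highest without control replicate 2) and Ier3 (-0.16 to 0.22, and -0.11 without mutant replicate 2); the cause was not tested. Jun, Junb, Dusp1, Ier2 and the Hspa1a and Hspa1b pair stayed negative under every alternative that gave them a value. Fosb was at -1.16 with a pseudocount of 0.1 and at -1.73 with 0.01, as the pseudocount weighs most at low levels.

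The labels number the replicates but do not say whether libraries of the same number belong together. Differences between replicates 1 and 2 correlated at 0.146 between the groups over 13287 genes, which does not settle it. With the replicate block, 0 members were called. A lone library was assumed to vary like those of the other group. Depth is unknown, which limits Fos and Fosb most.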
